A study of Bos taurus with 134 samples.

Results

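Bovine MII oocytes whose maturation began in the cow and ended in culture (VV) were compared with oocytes matured in culture alone (IVM), among RNA libraries with high library numbers. The VV oocytes were the libraries numbered 65 to 88 and named as VV, and the IVM oocytes were the libraries numbered 39 to 56 and named as in vitro. By this rule 23 VV and 18 IVM libraries were found, and values were present for 22 VV and 16 IVM oocytes, or 38 of 41. In all, 80 of the 88 RNA libraries held values, and those without were VV library 77 and IVM libraries 40 and 56 within the comparison. The study's methods describe a sequencing pool of all 88 RNA libraries. The labels name no sequencing run, so the library numbers are used only as numbers, and every VV number lies above every IVM number. The group and the order of the libraries can therefore not be told apart.

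Oocytes of the study came from 4 heifers aged 15 to 18 months, and each library is 1 oocyte. The VV complexes came from only some of the study's cows, so donor and group are partly confounded and the spread over VV oocytes is that of few animals. For IVM, cumulus-oocyte complexes were taken in a separate collection and cultured for 22 h. The study's methods describe follicles of at most 8 mm and GnRH, but no FSH, for that collection. For VV, heifers received 180 mg of FSH, follicles of at least 8 mm were aspirated 24 h after GnRH, and the complexes with poor cumulus expansion were cultured for a further 22 h. IVO oocytes, used here only beside the main comparison, came from the same stimulation and had expanded cumulus at collection. VV oocytes thus also differed from IVM oocytes in stimulation, follicle size and collection, and were selected by their cumulus. These differences, the selection and the treatment cannot be told apart.

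A fully grown oocyte is nearly silent in transcription while it completes meiosis. Its mRNA pool is then shaped mainly by degradation and by the shortening or lengthening of poly(A) tails. These libraries were made from mRNA captured on oligo-dT, so a change of tail length can alter what is captured as well as a change in the number of molecules. The table lists 7022 rows, each a gene without a name, and no cell type marker can be read from it. The shape of the difference is described for that reason, not its genes.

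The values are whole numbers that the authors had scaled so that the 75th percentile of each library is 61. No label names the cow of an oocyte, so the oocytes of a group were taken as 1 sample. No test was made, and the range and the SD over oocytes are a description.

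Depth differed between the groups. The value that 1 read is worth after scaling was read from the low values of each library, which gives an approximate number of reads over the 7022 rows. It was 46000 in VV library 76, with a median of 322000 and a highest of 1358000 in VV library 79. IVM oocytes had 180000 reads in library 43, a median of 707000 and 2032000 in library 39. The ranges overlapped, but 7 VV libraries lay below every IVM library and 3 IVM libraries above every VV library. One read was worth a median of 1.62 in VV and 0.97 in IVM, and at least 10 in 3 VV and 0 IVM libraries, so low values were coarser in VV. It was worth less than 0.5 in 2 VV and 3 IVM libraries, where a single read is rounded to 0 and is not counted as detected. The study's library table also lists a lower alignment rate for every VV library than for every IVM library of these numbers.

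VV library 87 stood apart from all other libraries compared. With 84000 reads over the rows it was not the shallowest, but its 75th percentile corresponded to 1 read, so that each read was scaled to about 61. Values above 0 were found in 1852 rows, and its highest value was 77064. Its total of 5168627 was 9.79 times the median total of the other VV libraries, and it held 31.7% of the summed value of all 22 VV oocytes. The mean of the VV group was thus set by this library in many rows, and the main results are given with and without it.

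Fewer genes were detected in most VV oocytes than in the median IVM oocyte, at a lower depth. VV oocytes had 1852 (library 87) to 5102 (library 65) rows above 0, with a median of 4432.5. In IVM oocytes the number ran from 3770 (library 53) to 5354 (library 46), with a median of 4785.5. The VV median was different from the IVM median by -353 rows with library 87 and by -338.5 without it, beside an SD of 520.1 over the other 21 VV oocytes and of 548 over IVM oocytes. Of 22 VV oocytes, 5 were above the IVM median. The groups overlapped over most of their range, with 3 VV oocytes below every IVM oocyte and 4 IVM oocytes above every VV oocyte.

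The deficit in VV lay among low values. Rows with a value of at least 10 had a median number of 3495 in VV (3505 without library 87) and 3582 in IVM. At a value of at least 61 the medians were 1768 in VV (1766 without library 87) and 1770.0 in IVM, which the scaling itself sets. Detection also moved with depth. The number of reads and of rows above 0 had a Spearman correlation of 0.60 over the 21 VV oocytes without library 87, and of 0.37 over the 16 IVM oocytes.

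The number of rows expected from 46000 reads, the depth of the shallowest library, was computed for each oocyte. It ran from 1771 (library 87) to 3935 (library 68) in VV, with a median of 3581, and from 3108 (library 41) to 3807 (library 52) in IVM, with a median of 3586. Without library 87 the VV range began at 3136 (library 76), with a median of 3588. At this depth the medians of VV and IVM differed by -5.10 rows with library 87 and by 1.68 without it, and the correlation with the number of reads was -0.01 in VV and 0.10 in IVM. At 180000 reads, reached by 15 VV and 16 IVM oocytes, the medians were 4390.3 and 4417. At an equal estimated number of reads, the only measure of depth matched, the medians of genes detected thus differed by few rows. Among the 15 VV and 13 IVM libraries with between 180000 and 1358000 reads, the median of rows above 0 was higher in VV, 4697 against 4437, with a median of 471000 reads in VV and 651000 in IVM.

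**Figure D1:**
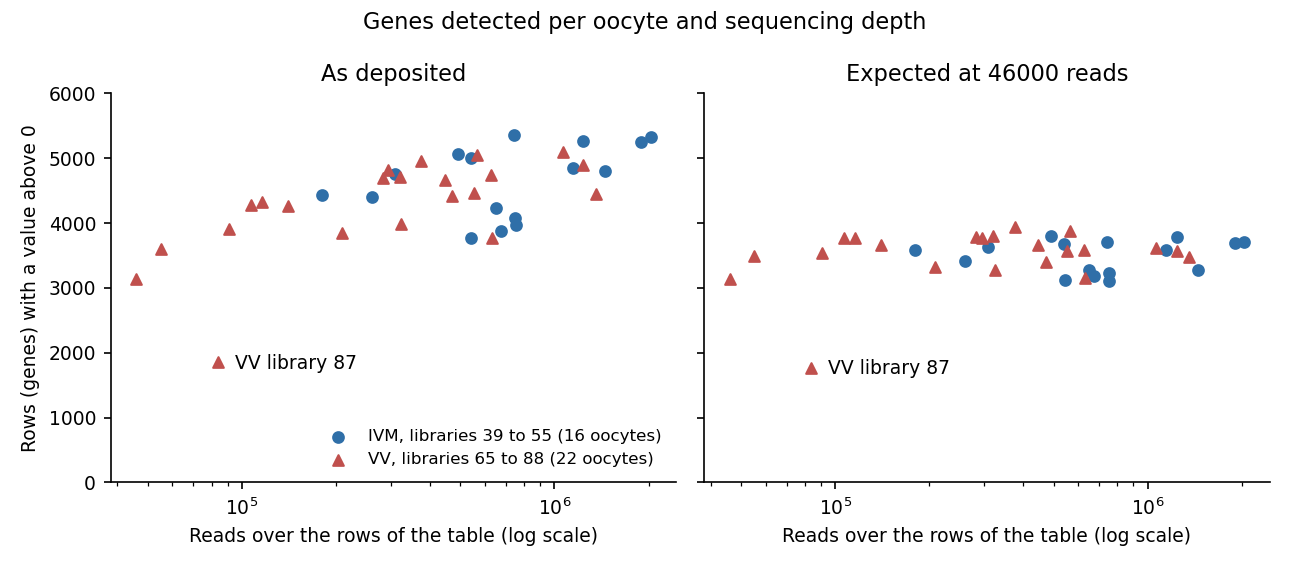
Rows with a value above 0 in each oocyte against the approximate number of reads (log axis), as deposited (left) and computed for 46000 reads (right). VV libraries 76, 80 and 87, with 3136, 3601 and 1852 rows, lie below every IVM oocyte on the left. On the right only library 87 does so, and libraries 76 and 80 lie within the IVM range.

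For the size of the difference, each row was compared as log2((VV mean + 1)/(IVM mean + 1)), over rows whose 2 group means averaged at least 10. With library 87 the 3854 rows had a median absolute difference of 0.71 and a 90th percentile of 1.91. Without it the 3747 rows had 0.65 and 1.57. The typical difference was thus well under 2-fold, and the extreme ones depended more on library 87 than the typical one.

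With library 87, 929 rows (24.1%) were at least 2-fold higher in VV and 408 rows (10.6%) at least 2-fold lower. Without it, 514 rows (13.7%) were higher and 604 rows (16.1%) lower, so the larger side changed. Of the 929 higher rows, 455 were also higher without library 87, which is 49.0% of the first list and 88.5% of the second. Of the 408 lower rows, 369 were shared, or 90.4% of the first list and 61.1% of the second. Lower calls made with library 87 were therefore mostly kept without it, and higher calls were not.

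The balance of directions also depended on the scaling. The signed median was 0.25 with library 87 and -0.04 without it. With each oocyte set to the same total, it was 0.21 with library 87 and 0.23 without it. Of the rows at least 2-fold apart, 69.5% were higher in VV with library 87 and 46.0% without it on the deposited scale, against 67.4% and 66.6% on equal totals. The values therefore give no single overall direction of the transcriptome in VV.

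Most differences were moderate. Without library 87, 45.6% of rows differed by less than 1.5-fold, 24.6% by 1.5- to 2-fold, 26.1% by 2- to 4-fold, 3.50% by 4- to 8-fold and 0.240% by 8-fold or more. At 8-fold or more were 4 rows higher and 5 rows lower in VV. With library 87 these were 104 higher and 2 lower rows, and the highest difference was 7.96 in place of 3.46. The long tail of higher values in VV was therefore carried by 1 oocyte.

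**Figure D2:**
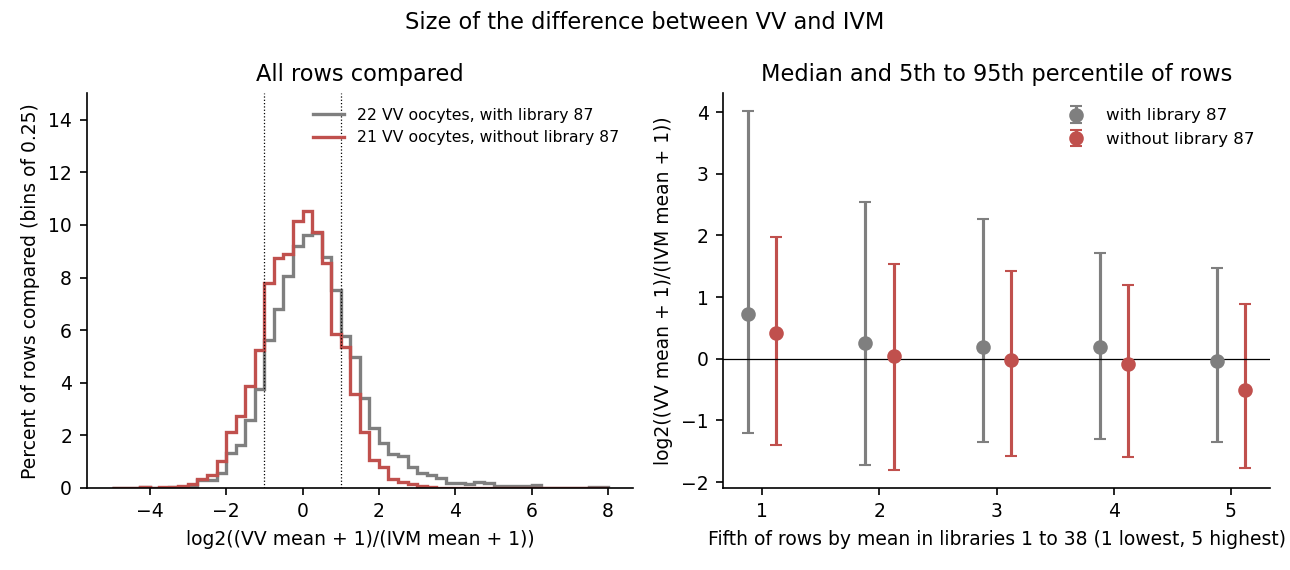
Distribution of the log2 difference between the VV and the IVM mean over rows (left, dotted lines at 2-fold), and its median with the 5th to 95th percentile in 5 classes of rows by level in libraries 1 to 38 (right), with and without VV library 87. The upper tail shortens without library 87, and the median goes down from the lowest to the highest class.

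The differences among the rows compared, which leave out rows of low mean, were graded, not on or off. A row was called on in a group when at least 80% of its oocytes had a value above 0, and off when at most 20% had one. Among the rows compared, 0 were on in VV and off in IVM and 0 were the reverse, with and without library 87. Over all 7022 rows, 0 were on in VV only and 8 were on in IVM only, against 1 and 5 among libraries with between 180000 and 1358000 reads. The share of oocytes above 0 was at least 50 points lower in VV in 75 of all rows, and higher in 5, with library 87. Without it, these were 64 and 8 rows. Rows at 0 throughout a group numbered 478 in IVM and 462 in VV, of which 170 were at 0 in both. Without library 87, 472 rows were at 0 in VV and 174 in both. The most widely detected of the rows at 0 in every IVM oocyte was above 0 in 36.4% of VV oocytes, and the reverse share was 50%. No row was thus present in most oocytes of one group and absent from all of the other.

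The log2 ratio of the means was also split exactly into a part from the share of oocytes above 0 and a part from the mean among those oocytes. Detection made up at least 50% of the difference in 18 of 1386 rows (1.30%) that were 2-fold apart by this ratio with library 87, and in 15 of 1174 rows (1.28%) without it. Of these 15, 2 were among 540 higher rows and 13 among 634 lower rows. The share was 18.7% with library 87 when detection was set at a value of at least 10 in place of above 0. The rows compared were mostly detected in both groups. Without library 87, rows at least 2-fold higher in VV were above 0 in a median of 100% of VV and 93.8% of IVM oocytes, and rows lower in VV in a median of 100% of both. With it, higher rows were above 0 in a median of 95.5% of VV and 93.8% of IVM oocytes, and lower rows in 86.4% and 100%.

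A further set of rows leaves detection out altogether. Without library 87, 1850.0 rows compared were above 0 in every oocyte of both groups. Of these, 186 (10.1%) were at least 2-fold higher in VV and 301 (16.3%) lower, against 13.7% and 16.1% of all rows compared. With library 87, 1220.0 rows were above 0 in every oocyte, of which 312 (25.6%) were higher and 75 (6.15%) lower, against 24.1% and 10.6% of all rows compared. Differences of 2-fold thus occurred among rows without any 0. With library 87, each such row has a value of at least 61 in that library, which raises its VV mean. Their main direction thus depended on library 87, and the choice of rows itself favours higher rows when it is included.

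The largest differences were described by row number, since rows carry no name. Row 3350 had the largest difference among higher rows when the smaller of its values with and without library 87 was ranked, although with library 87 other rows reached 7.96. It had values of 0 to 105 (library 79) and a median of 22 in VV, and 0 to 18 (library 55) with a median of 0 in IVM. It was above 0 in 18 of 22 VV and 5 of 16 IVM oocytes, and the difference was 3.40 with library 87, where it is listed at 0, and 3.46 without, but 1.77 with a pseudocount of 10 in place of 1. Among the oocytes compared, values above 18 thus occurred only in VV, but 4 VV oocytes were at 0 and the groups overlapped. Row 3350 had a mean of 31.3 in VV and 2.06 in IVM, so it was among the rows compared only through VV. A row this low in 1 group is compared only if it is far higher in the other. Its median was also 0 in IVM libraries 1 to 17, in IVO libraries 19 to 38 and in IVO libraries 59 to 72, where it reached 29.

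By the same rule row 6816 led the higher rows above 0 in every oocyte. In VV it ran from 72 (library 65) to 5509 (library 87), with a median of 400.0, and without library 87 its highest value was 796 (library 80). In IVM it ran from 30 (library 45) to 100 (library 44), with a median of 53. The difference was 3.36 with library 87 and 2.66 without it, and the VV value was the higher one in 98.9% and 98.8% of the VV and IVM pairs. The groups nearly separated at this row. Oocytes outside the comparison had medians between those of IVM and VV, 137 in IVM libraries 1 to 17, 117 in IVO libraries 19 to 38 and 109 in IVO libraries 59 to 72. The IVM oocytes of libraries 1 to 17, at 35 to 215, overlapped with those of libraries 39 to 55 but were mostly higher, with means of 132 and 58.3.

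Row 4400 led the lower rows, with values of 0 to 9 (library 68) and a median of 0 in VV, and 0 (library 50) to 194 (library 55) and a median of 20 in IVM. It was above 0 in 8 of 22 VV and 15 of 16 IVM oocytes, with a difference of -4.20 with library 87 and -4.16 without, or -2.27 with a pseudocount of 10. VV oocytes were at or near 0 here, and IVM oocytes were mostly above 0 at low values, with a few of them far above the rest. Row 4400 had a mean of 1.55 in VV and 45.8 in IVM, so it was compared only through IVM, and only because its difference was large. In IVM libraries 1 to 17 the median was 4, in IVO libraries 19 to 38 it was 11 and in IVO libraries 59 to 72 it was 2.

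Row 2810 led the lower rows above 0 in every oocyte. It ran from 20 (library 80) to 135 (library 76) in VV, with a median of 38.5, and from 78 (library 43) to 790 (library 47) in IVM, with a median of 119.5. The difference was -2.04 with library 87, which had 122, and -2.13 without it. Most VV oocytes were below all IVM oocytes, and the few high VV oocytes made the groups overlap. The median was 104 in IVM libraries 1 to 17, 122 in IVO libraries 19 to 38 and 75 in IVO libraries 59 to 72.

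The direction of the difference changed with the expression level. Rows were divided into 5 equal classes by their mean in 34 oocytes of libraries 1 to 38, which are in neither group. Without library 87 the signed median went from 0.41 in the lowest class through 0.04, -0.02 and -0.09 to -0.50 in the highest. The highest class, with means from 217 to 9689, had 3.87% of rows at least 2-fold higher in VV and 25.2% lower, against 26.7% higher and 9.33% lower in the lowest class. With library 87 the signed medians were 0.73, 0.25, 0.19, 0.19 and -0.03. With these classes, abundant transcripts thus had lower values in VV relative to the rest. The share of rows 2-fold apart in either direction was 36.0% in the lowest and 29.1% in the highest class without library 87, and 47.3% and 22.4% with it.

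The classes themselves enter these values. The 34 oocytes outside the comparison hold IVM but no VV oocytes, and a row with a low mean there was compared only if its mean in VV or IVM was higher. When rows were instead chosen by a mean of at least 10 in those 34 oocytes, the signed median of the lowest class was 0.04 and that of the highest -0.49, without library 87. When classes were made from the mean of both groups compared, the values were 0.05 and -0.28. When they were made from the VV mean alone, which favours high VV values in the highest class, they were -0.47 and 0.05. Classes from the IVM mean alone, which favour the opposite, gave 0.48 and -0.52. The higher values in the lowest class thus depended on how rows were chosen. The lower values in the highest class were found in each of these ways but the VV mean, and classes from the mean of one group alone turn the trend towards that choice. With library 87 the highest class had signed medians of -0.03 for classes and rows as first chosen, -0.04 for rows chosen in the 34 oocytes, 0.21 for classes from both groups, 0.55 for the VV mean and -0.06 for the IVM mean, so its sign changed with that oocyte for the classes from both groups, and its size in all. The lowest class then had 0.73, 0.20, 0.14, -0.35 and 0.80 in the same order, so with library 87 the highest class was not below the lowest for classes from both groups or from the VV mean. These choices were added after the data were seen, except the classes from both groups and those from libraries 1 to 38.

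With all oocytes set to the same total, the signed median ran from 0.68 in the lowest to -0.23 in the highest class without library 87. Among libraries with between 180000 and 1358000 reads it ran from 0.47 to -0.45. With classes from libraries 1 to 38, the decline with level was therefore found under another scaling and at overlapping depth.

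Single oocytes of the groups were separated by the share of the most abundant rows. The 100 rows most abundant in libraries 1 to 38 held 20.7% (library 68) to 27.6% (library 87) of the scaled value of a VV oocyte, with a median of 22.9%. In IVM oocytes they held 28.4% (library 51) to 35.2% (library 47), with a median of 30.7%. All 22 VV oocytes lay below all 16 IVM oocytes. The medians were apart by -7.73 points with library 87, -7.93 without it and -7.63 among libraries of overlapping depth. Libraries 1 to 38 hold IVM but no VV oocytes, so this choice of rows favours a higher share in IVM. The 10 most abundant rows also gave no overlap, with 3.60% to 6.25% in VV and 7.17% to 9.50% in IVM, whereas the 10 most abundant rows of each library itself held 5.98% to 9.07% in VV and 7.25% to 10.8% in IVM, with 18 VV oocytes below every IVM oocyte.

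This measure does not require rows chosen in other oocytes. The 100 most abundant rows of each library itself held 25.1% (library 68) to 34.1% (library 87) in VV, with a median of 26.5%, and 30.4% (library 48) to 38.3% (library 47) in IVM, with a median of 32.3%. Without library 87 the highest VV oocyte was at 29.8% (library 76), and 21 of 22 VV oocytes were below every IVM oocyte. The 99th percentile of values ran from 737 to 1157 in VV without library 87 and from 1063 to 1885 in IVM, with 17 VV oocytes below every IVM oocyte. The most abundant mRNAs thus took a smaller share of the VV libraries.

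Oocytes outside the comparison were set beside these shares. In IVM libraries 1 to 17 the 100 rows held 28.9% to 40.0%, with a median of 33.5%, and in IVO libraries 19 to 38 they held 28.4% to 36.5%, with a median of 32.2%, but these libraries chose the rows. In the 7 IVO libraries numbered 59 to 72, which did not, they held 21.6% (library 72) to 28.8% (library 59), with a median of 26.6%. Libraries 61, 62 and 72 lay within the VV range, libraries 60, 63 and 64 within it only if library 87 is counted, and library 59 within the IVM range. The other measures of share placed these 7 libraries differently. The 10 rows most abundant in libraries 1 to 38 held 4.30% to 5.75%, with all 7 within the VV range and below every IVM oocyte. Each library's own 100 most abundant rows held 25.5% to 34.7%, with a median of 30.4%, and libraries 59, 60, 63 and 64 were at IVM levels. Whether the share goes with the group or with the library number cannot be told apart in VV, and its part in the difference from IVM was not tested.

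Spread between oocytes was given by the SD of log2(value + 1) over the oocytes of a group, for each row. The median SD over rows was 1.64 in VV with library 87, 1.09 without it, and 0.91 and 0.90 in IVM over the same rows. VV had the higher SD in 86.1% of rows with library 87 and in 62.2% without it. Most of the excess spread was thus lost when 1 oocyte was left out. Among libraries of overlapping depth, which leave out library 87, the median SD was 0.98 in VV and 0.93 in IVM, and 55.7% of rows had the higher SD in VV.

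Spread was smaller at higher expression levels in both groups. Without library 87 the median SD in the classes from lowest to highest was 1.72, 1.58, 1.16, 0.76 and 0.58 in VV. In IVM it was 1.61, 1.41, 0.90, 0.66 and 0.54. The groups were closest in the highest class. With library 87 this was not so, as VV had 1.92 and IVM 1.58 in the lowest class, and 1.00 and 0.54 in the highest. Among rows at least 2-fold apart without library 87, higher rows had a median SD of 1.24 in VV and 1.47 in IVM, and lower rows 1.15 in VV and 0.79 in IVM. The SD was higher in VV in 45.1% of these higher rows and 71.2% of the lower rows. These rows were chosen by which group had the lower mean, and SDs were larger at lower levels. The choice of rows thus enters these SDs. With library 87 higher rows had a median SD of 1.75 in VV and 1.20 in IVM, and 83.1% of higher and 86.3% of lower rows had the higher SD in VV.

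**Figure D3:**
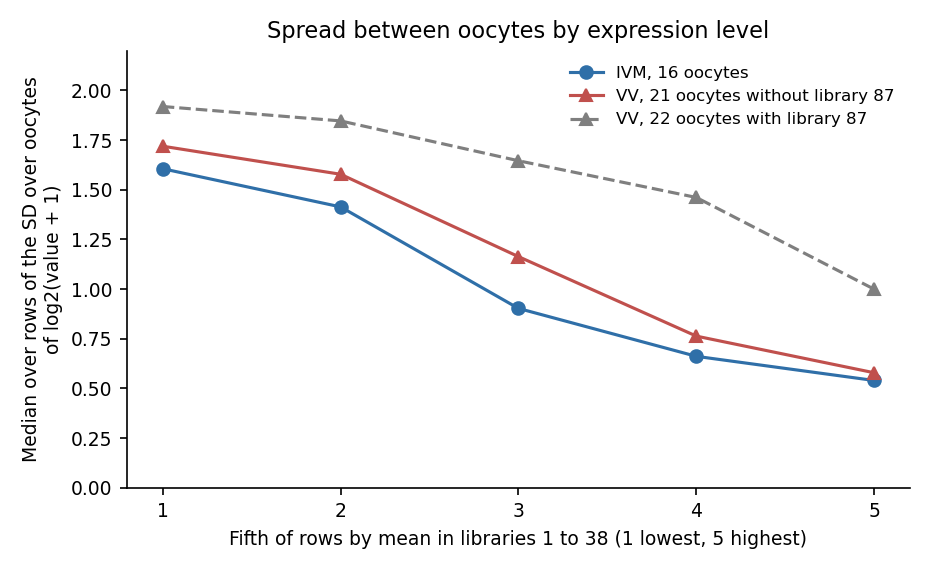
Median over rows of the SD over oocytes of log2(value + 1), in 5 classes of rows by their mean in libraries 1 to 38, for IVM, for VV without library 87 and for VV with it. Both groups have smaller SDs at higher levels, and library 87 adds spread in each class.

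Pairs of oocytes were also compared across rows by Spearman correlation, in which rows are not independent replicates. Without library 87, the 210 VV pairs had a median of 0.80 (range 0.65 to 0.90), the 120 IVM pairs 0.81 (0.70 to 0.93), and the 336 pairs of a VV and an IVM oocyte 0.73 (0.54 to 0.85). VV oocytes were as alike among themselves as IVM oocytes, and pairs across groups were less alike, with overlapping ranges. Library 87 had a median correlation of 0.47 with other VV and 0.50 with IVM oocytes. The oocyte with the highest correlation was of the same group for 19 of 21 VV and for 16 of 16 IVM oocytes.

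Separation of single rows was counted over all pairs of a VV and an IVM oocyte. With library 87, the VV value was the higher one in at least 90% of pairs in 147 rows (3.81%), and the lower one in at least 90% in 285 rows (7.39%). Without it, 181 rows (4.83%) were separated as higher and 376 rows (10%) as lower. Rows whose groups did not overlap at all were 8 higher (0.208%) and 9 lower (0.234%) with library 87, and 9 higher (0.24%) and 27 lower (0.721%) without it. On the deposited scale there were thus more lower than higher separated rows. With each oocyte set to the same total, 5.72% of rows were separated as higher and 5.69% as lower, with library 87, so this excess depended on the scaling. Of the 376 lower rows separated without library 87, 200 lay in the highest class by level, which held 750 of the 3747 rows compared. Of the 181 separated higher rows, 27 lay there. The median SD over oocytes was smallest in this class, at 0.58 in VV and 0.54 in IVM, which makes separation easier.

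A 2-fold difference of means did not mean separated oocytes. Without library 87, 171 of the 514 higher rows (33.3%) and 322 of the 604 lower rows (53.3%) were separated in at least 90% of pairs. With library 87 these were 141 of 929 higher rows (15.2%) and 176 of 408 lower rows (43.1%). The difference in mean log2(value + 1) exceeded the SD over oocytes of both groups in 1033 of 3747 rows (27.6%) without library 87, of which 368 were higher and 665 lower. With it there were 618 such rows, 220.0 higher and 398 lower. Lower rows thus outnumbered higher ones on the deposited scale, and this count was not made on equal totals.

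A value per oocyte was taken over all such rows, as the median of log2(value + 1) over the rows 2-fold higher in VV minus that over the rows 2-fold lower. The rows were chosen without library 87 and without the oocyte scored, from the same comparison, so the separation of the groups is a description. VV oocytes other than library 87 ran from -0.31 (library 76) to 1.55 (library 82), with a median of 1.08. IVM oocytes ran from -2.77 (library 55) to -0.84 (library 44), with a median of -1.52. All 21 VV oocytes lay above every IVM oocyte. Rows chosen for a difference between these groups favour such a separation, so nothing further is read from it. Library 87, at -6.94, lay below all of them, with a median of 0 over the higher rows.

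Oocytes that chose no row were scored too. IVM libraries 1 to 17 had a median of -1.51 and IVO libraries 19 to 38 a median of -1.62, near that of IVM libraries 39 to 55. The 7 IVO libraries numbered 59 to 72 had a median of 0.15, from -2.78 (library 59) to 1.39 (library 72), with 85000 to 631000 reads. Libraries 61, 62, 64 and 72 lay within the VV range, libraries 60 and 63 between the groups and library 59 below the lowest IVM oocyte of libraries 39 to 55. Only the number of library 72 is among those of VV. The part of the library number in the difference between VV and IVM was not tested. Within the groups, the score and the number of reads had a Spearman correlation of 0.06 over 21 VV and -0.50 over 16 IVM oocytes. For the score and the number of rows expected from 46000 reads it was 0.50 in VV and 0.59 in IVM.

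**Figure D4:**
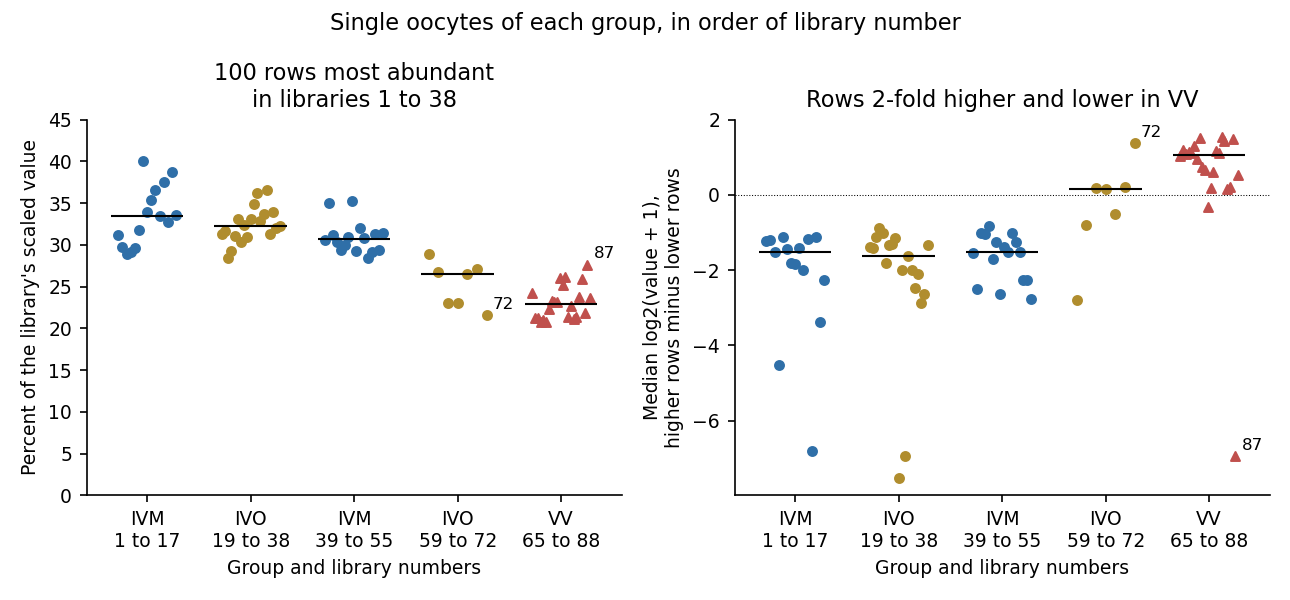
Each oocyte's share of scaled value in the 100 rows most abundant in libraries 1 to 38 (left) and its score over rows 2-fold higher and lower in VV (right), by group and library number, with the median as a line. VV oocytes lie below all IVM oocytes of libraries 39 to 55 on the left and, except library 87, above them on the right. Of the IVO libraries numbered 59 to 72, libraries 61, 62 and 72 lie within the range of VV without library 87 in both plots.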

How the data were processed

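Per the labels and the study's methods, reads were trimmed with Trim Galore 0.4.4 and aligned with HISAT2 2.1.0 to UMD3.1.1, and genes were quantified in SeqMonk. The authors deposited a score per gene and oocyte, a whole number on a scale whose upper quartile is 61 in each library. The tool used for the scaling is not given in the sources used here. Reads per library were estimated from the value of 1 read and rounded to 1000, and the number of rows at a common depth was computed from them. Members and lists were chosen with earlier results of these data known. Rows were named by the smaller of their absolute differences with and without VV library 87, with the same sign in both: the largest in each direction, among all rows compared and among rows above 0 in every oocyte. Alternatives covered pseudocount, average, scaling, filters, level classes, depth and single libraries. Code was tested on simulated data. Calculations used scipy 1.17.1, pandas 2.3.3 and numpy 2.4.6 in Python 3.11.15, with plots in matplotlib 3.10.9. RNA library 18, whose labels conflict, and methylation values were not used here.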

Additional observations from a re-analysis of the deposited data

How the results depend on the processing

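No paired analysis was possible because the labels name no cow, and VV and IVM library numbers share none. Of 70 alternatives, 5 reversed the sign of the main value, 24 moved it by more than the limit set for it and 41 by less, and the cause was not tested. For genes detected that limit was the SD over single oocytes, which is wide for a difference of medians, as the difference of -353 was -87 at values of at least 10, -2 at values of at least 61, -5.10 at 46000 reads and -26.7 at 180000 reads. Rows chosen by libraries 1 to 38, detection at 180000 reads, and all alternatives for the share of abundant rows and for rows lower in 90% of pairs were chosen after seeing the data.

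Without VV library 87, the signed median was -0.038 (main 0.25), 2-fold higher rows were 13.7% (24.1%), lower rows 16.1% (10.6%), the gap between the lowest and highest class in rows 2-fold apart 6.93 points (24.9) and the excess SD in VV 0.19 (0.73). With means of log2(value + 1), the signed median was -0.17, higher rows 13.1%, lower rows 21.3% and the gap 8.30 points. With medians, the signed median was -0.11, higher rows 12.8% and lower rows 19.7%. At overlapping depth, which also leaves out library 87, the signed median was -0.019 and higher rows 14.8%. The gap was then 9.54 points, the excess SD 0.056, and VV had 260.0 more genes detected. With a pseudocount of 10, the median absolute difference was 0.59, lower rows 6.62%, the gap 7.26 points and the excess SD 0.32. Rows with a mean above 0 gave a signed median of 0.14. Detection at 10 gave 18.7% of 2-fold rows mainly by detection, and rows with a mean of at least 50 gave 0%, with 6.06% of rows higher in 90% of pairs. The gap was 6.49 points with classes from both groups, and with rows chosen by libraries 1 to 38 it was 15.4 points, or 1.80 without library 87. Each library's own 100 rows gave a share difference of -5.79 points.

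Leaving out 1 of the 38 libraries at a time gave 0.65 to 0.73 for the median absolute difference, -0.038 to 0.27 for the signed median, 13.7% to 25.0% for higher rows, 9.95% to 16.1% for lower rows and -379.5 to -326.5 for genes detected. Leaving out any library but 87 gave a signed median of 0.24 to 0.27 and at least 24.1% higher and at most 11.0% lower rows. Depth limits the low values, where 1 read in VV libraries 76, 80 and 87 exceeds a value of 10.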
